A study of Homo sapiens with 6 samples.

Results

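Very long genes were defined here as genes whose annotated length in the TIRR iCLIP gene tables was at least 500 kb. Of 28231 genes listed in any of the 4 iCLIP tables, 405 reached that length. Genes without a symbol, long intergenic and antisense RNAs, microRNA host genes, collagen genes and 5 single genes were left out by name, which removed 104 and kept 301. TIRR is a partner of the DNA repair protein 53BP1, and iCLIP reads out the RNA that ultraviolet light crosslinks to a protein in intact cells before they are lysed. All cells were U2OS, a human osteosarcoma line. The iCLIP libraries came from cells stably transfected with FLAG-tagged TIRR (genotype label TIRR_FLAG), 2 libraries without treatment and 2 from cells given 5 Gy of X-rays and 4 h of recovery. The RNA-seq libraries came from wild type U2OS, 1 without treatment and 1 after 5 Gy of X-rays and 4 h of recovery. The sample labels give X-rays for both assays and were followed here, whereas the series description names gamma rays for the RNA-seq experiment. The tagged protein is in the iCLIP cells alone. The labels do not say whether the transfected line was 1 clone or whether same-group libraries came from separate cultures, so every p-value below measures the spread between libraries, which may be technical. Empty-vector iCLIP cells, which the design names, were not analysed here, and no background was subtracted from any iCLIP value.

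A very long gene is almost entirely intron, and RNA polymerase needs many hours to cross it. Such genes are known for late replication, for clashes between transcription and replication, and for common fragile sites, the places where chromosomes break under replication stress. Many of them encode adhesion molecules, synaptic proteins, channels and scaffolds, and they are best known from neurons. Ionising radiation breaks DNA at random positions, so a longer template is a larger target, and transcription is known to pause near breaks. TIRR binds the Tudor domain of 53BP1 and keeps it from chromatin, and it also binds RNA.

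The 301 genes spanned 500454 to 2460878 bases, with a median of 719032, and 67 of them reached 1 Mb. The longest were RBFOX1 (2460878 bases), CNTNAP2 (2302100) and PTPRD (2298271), which encode a splicing regulator, a neurexin-like adhesion protein and a receptor-type phosphatase. All 301 matched a RefSeq position, on 23 chromosomes, and 35 lay on chromosome 3. RefSeq classes 287 as protein-coding, 12 as long noncoding RNAs and 2 as transcribed pseudogenes. RefSeq models of 26 of them were shorter than 500 kb. A median of 5 other RefSeq genes overlapped each, and 61 overlapped another protein-coding gene. Since no source used here gives the strand setting of the counting, reads of overlapping genes cannot be told apart. Just inside the length threshold stood PPFIA2 (500454 bases; 27, 18, 10 and 8 counts in untreated 1, untreated 2, irradiated 1 and irradiated 2) and KCNAB1 (501018 bases; 11, 17, 13 and 10). Just outside stood AFF2 (499604 bases; 34, 25, 10 and 32) and DIAPH3 (498048 bases; 224, 221, 77 and 126).

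The iCLIP libraries held 781997 and 799709 gene counts without treatment and 400723 and 664777 after irradiation, and the RNA-seq libraries 13015406 and 13023903. Of 3090 genes with at least 1000 counts in untreated RNA-seq, 642 (20.8%) had no row in any iCLIP table used here, so iCLIP shares are shares of the listed genes, and such a gene was not read as 0. The labelled cell type was checked with marker genes in RNA-seq: VIM (36294 and 33956 counts untreated and irradiated), SPARC (23955 and 24912) and COL1A1 (35832 and 44204), which mesenchymal and bone cells express, were high. The bone markers SP7 (0 and 0), BGLAP (3 and 4) and COL1A2 (6 and 2) were at or near 0. The neuronal markers DCX (0 and 0) and STMN2 (1 and 3) were also at or near 0, whereas TUBB3 (1550 and 1944) and NEFL (813 and 1364) were not. The osteoblast transcription factor RUNX2, which is shorter than the length threshold, was lower in iCLIP after irradiation (875, 889, 267 and 469 counts; log2 fold change -0.63, edgeR adjusted p = 0.00426).

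RefSeq promoter windows of 300 bases (250 before to 50 after a transcription start, GRCh38.p14) were found for 249 of the 301 genes, 586 windows in all, 145 genes having more than 1. They are shown for 4 genes that the iCLIP test called, chosen after their values were seen, so that the start sites of genes that moved in opposite directions can be set side by side. CALN1 had the smallest adjusted p among genes that rose and TAFA2 the largest rise, while PCDH9 and MAGI1 fell and have 1 listed window each. All 4 are on the minus strand and are written 5′ to 3′ on it. Capitals mark GC boxes (GGGCGG or its complement CCGCCC).
CALN1: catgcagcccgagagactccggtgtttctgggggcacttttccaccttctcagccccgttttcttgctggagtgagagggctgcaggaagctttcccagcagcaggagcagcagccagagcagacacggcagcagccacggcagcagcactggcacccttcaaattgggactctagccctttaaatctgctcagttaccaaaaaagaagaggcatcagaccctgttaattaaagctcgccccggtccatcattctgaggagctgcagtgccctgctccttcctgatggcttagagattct
TAFA2: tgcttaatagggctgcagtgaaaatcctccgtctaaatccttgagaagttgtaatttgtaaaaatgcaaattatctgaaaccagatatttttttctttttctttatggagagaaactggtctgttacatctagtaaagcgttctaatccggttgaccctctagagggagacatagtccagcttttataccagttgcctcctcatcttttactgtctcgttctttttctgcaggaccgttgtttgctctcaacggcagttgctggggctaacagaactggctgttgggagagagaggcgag
PCDH9: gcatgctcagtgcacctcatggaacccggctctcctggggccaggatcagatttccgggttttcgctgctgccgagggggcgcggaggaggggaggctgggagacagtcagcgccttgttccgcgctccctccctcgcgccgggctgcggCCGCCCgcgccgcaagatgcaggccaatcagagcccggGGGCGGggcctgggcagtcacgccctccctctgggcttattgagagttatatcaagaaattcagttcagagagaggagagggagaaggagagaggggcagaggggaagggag
MAGI1: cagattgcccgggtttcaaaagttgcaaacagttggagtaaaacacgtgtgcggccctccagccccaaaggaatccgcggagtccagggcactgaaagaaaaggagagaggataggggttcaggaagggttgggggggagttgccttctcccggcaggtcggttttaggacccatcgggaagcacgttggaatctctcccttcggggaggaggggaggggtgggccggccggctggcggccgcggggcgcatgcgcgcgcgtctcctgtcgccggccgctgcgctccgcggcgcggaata
The CALN1 window (chr7:72447094-72447393, the outermost of 2 listed) had a GC content of 55.3% and no GC box. The TAFA2 window (chr12:62192724-62193023) had 42.3% and held 1 match to TATAAA, on the opposite strand (TTTATA as written above). The PCDH9 window (chr13:67230287-67230586) had 65.7% and 2 GC boxes, and the MAGI1 window (chr3:66038869-66039168) had 64.7% and none.

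Across all windows of the very long genes the median GC content was 55.7%, against 58.7% over the 35116 windows of all RefSeq genes. GGGCGG on either strand was in 40.3% of the windows of very long genes and in 45.0% of all windows. TATAAA on either strand was in 12.1% and 11.5%, and CCAAT on either strand in 31.2% and 34.6%. The p53 response element, as a pair of adjacent decamer half-sites with a spacer of at most 13 bases, was in 0 of 586 windows and in 10 of 35116, and its half-site in 8.53% and 6.63%. A match is a description of the letters in the window and not a bound site. Windows of the genes called higher (12 windows of 5 genes) had a median GC content of 51.7%, and those of the genes called lower (22 windows of 9 genes) 65.2%; these are few windows, and the difference was not tested.

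Very long genes took a smaller share of the iCLIP counts after irradiation, and their share of RNA-seq counts was nearly level. They held 7.40% (95% exact Clopper-Pearson interval 7.34 to 7.46) and 7.34% (7.29 to 7.40) of gene counts in the untreated iCLIP libraries. In the irradiated libraries they held 6.80% (6.73 to 6.88) and 6.75% (6.69 to 6.81). Both irradiated libraries stood below both untreated ones, and no interval of one group reached the other. The means were 7.37% ± 0.0385 (SD, n = 2) and 6.78% ± 0.0378 (SD, n = 2), a ratio of 0.919, and with 2 libraries a group no test was made of it. In RNA-seq the share was 0.634% (0.629 to 0.638) untreated and 0.641% (0.637 to 0.645) irradiated, 1 library each, and the intervals overlap. Intervals cover counting error only. In bulk libraries fewer cells and less RNA per cell cannot be told apart, nor can less RNA and less TIRR on it within iCLIP.

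**Figure D1:**
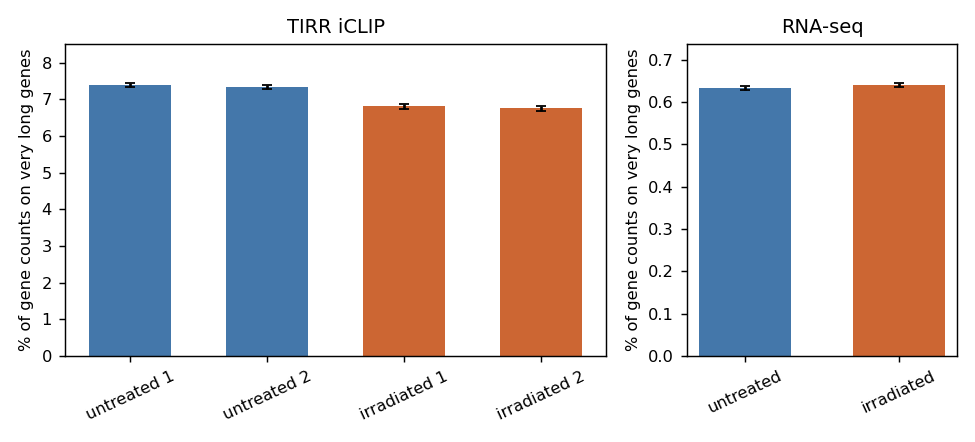
Percent of gene counts on the 301 very long genes in each iCLIP library (left axis) and each RNA-seq library (right axis, another scale), with exact 95% intervals for counting error as bars. Untreated iCLIP libraries stand at 7.40% and 7.34% and irradiated ones at 6.80% and 6.75%, while the RNA-seq libraries stand at 0.634% and 0.641%.

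The lower share was spread over many of the genes. Without the 16 genes that passed the test, the remaining 285 held 6.61% ± 0.0555 untreated and 5.98% ± 0.00673 irradiated (SD, n = 2 each), a ratio of 0.904. Without the 12 genes with the most counts the ratio was 0.908. The 107 genes with fewer than 100 untreated counts held 0.392% and 0.383%, a ratio of 0.975, and here the irradiated libraries, 0.362% and 0.403%, lay on both sides of the untreated ones. The 67 genes of at least 1 Mb went from 2.03% ± 0.00469 to 1.81% ± 0.000377 (SD, n = 2 each). The 104 genes of this length that were left out by name went from 2.62% to 2.12%. Genes of 200 to 500 kb went from 19.9% to 18.9%, those of 50 to 200 kb from 37.6% to 37.5%, and those below 50 kb from 32.5% to 34.6%.

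Per gene, 300 of the 301 passed the filter on low counts and entered a test fitted on 9230 genes (edgeR quasi-likelihood test, Benjamini-Hochberg adjusted p below 0.05). The exception was the protocadherin gene PCDH11Y, which shares near-identical sequence with PCDH11X. Over all 9230 genes 323 (3.50%) were called, 224 higher (2.43%) and 99 lower (1.07%). Among very long genes 16 were called (5.33%), 7 higher (2.33%) and 9 lower (3.0%). In this fit the higher share is near that of all genes and the lower share above it. An unadjusted p below 0.05 was reached by 57 (19.0%, against 14.5% of all genes tested). Very long genes had a median of 270 summed iCLIP counts, against 123 over all genes tested. A change of a given size passes more easily with more counts, and the part of that in these shares was not tested. Both irradiated libraries lay below both untreated ones for 107 very long genes (35.7%, against 22.0%) and above them for 55 (18.3%, against 22.0%). The number of calls depended on the libraries and the test: DESeq2 called 2 very long genes higher and 0 lower (106 and 15 of all genes), and the fit without untreated library 1 called 1 higher and 1 lower (145 and 41 of all genes). The fit with the replicate number as a block also called 1 higher and 1 lower (150 and 40 of all genes), and that without untreated library 2 called 2 and 2 (162 and 56). The larger share of lower calls was therefore absent with DESeq2 and with the replicate block. In the fits without 1 of the untreated libraries it was absent or slight.

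The median log2 fold change of very long genes was -0.11, against 0.00 over all genes tested, and 184 of 300 (61.3%) were below 0, against 49.8%. By length the median was 0.04 below 50 kb, -0.00 from 50 to 200 kb, -0.06 from 200 to 500 kb and -0.09 in the genes of at least 1 Mb. Genes called lower made up 0.426%, 0.999% and 2.52% of these 3 shorter bands, whose median summed counts also rose with length (86, 160 and 216.5). Scaling by library totals in place of TMM gave a median of -0.06 over all genes tested. The medians were then -0.03, -0.07 and -0.13 in the shorter bands and -0.18 in very long genes. Calls among very long genes were 3 higher and 14 lower (17.6% higher, against 43.8% with TMM). Calls among all genes moved the same way, to 184 higher and 132 lower (58.2% higher, against 69.3% with TMM). Without irradiated library 2 the median of very long genes was -0.06 against -0.02 for all genes, and that of the 200 to 500 kb band -0.07. Within the very long genes length and log2 fold change were nearly unrelated (Spearman rho 0.03 over 300 genes of the same 4 libraries).

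**Figure D2:**
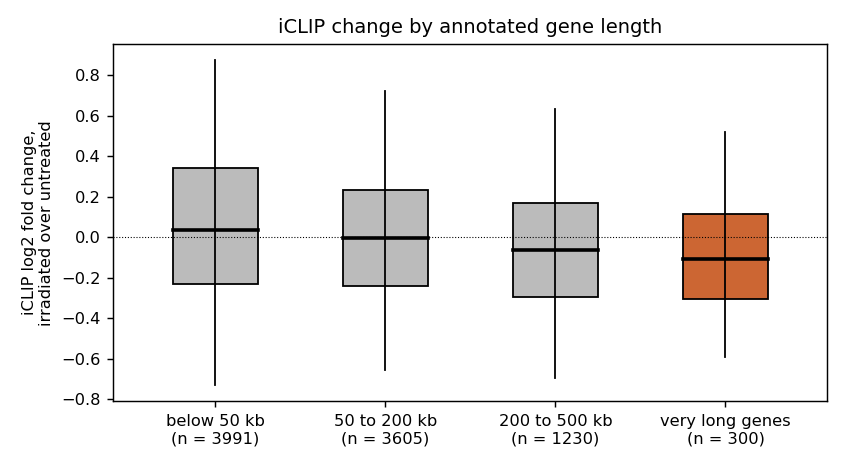
Log2 fold change in iCLIP, irradiated over untreated, of genes tested in each band of annotated length; boxes span the quartiles, the thick line is the median and whiskers run from the 5th to the 95th percentile of genes. Medians are 0.04, -0.00, -0.06 and, in very long genes, -0.11, and the boxes overlap widely.

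Adhesion molecules, which hold cells and synapses together, were the largest role group. Of 55 tested, 5 were lower, 1 was higher and 49 did not pass, with a median log2 fold change of -0.14, which was 0.01 without irradiated library 2. In the same fit 1.07% of all 9230 genes and 3.0% of all very long genes were lower, and 2.43% and 2.33% were higher. The counts of this and the other groups below stand beside these shares, and no group was tested against them. DESeq2 called 0 of the group, and the replicate block and the fit without untreated library 1 each called 1, which was lower. NLGN1 (neuroligin 1, a postsynaptic partner of neurexins) stood at 168 and 193 CPM untreated and 116 and 84.1 CPM irradiated, from 134, 158, 45 and 55 counts. Its log2 fold change was -0.89 ± 0.20 (SE; edgeR adjusted p = 0.0141). PCDH9, a protocadherin, went from 170.1 and 142 CPM to 61.7 and 99.4 CPM (136, 116, 24 and 65 counts; log2 fold change -0.89 ± 0.22, edgeR adjusted p = 0.0271). In both genes the 2 groups did not overlap, and the irradiated libraries differed from each other by more than the untreated ones.

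KIRREL3, an immunoglobulin-family adhesion protein, had 379, 426, 140 and 212 counts (474 and 519.7 CPM, then 360.1 and 324; log2 fold change -0.54 ± 0.14, edgeR adjusted p = 0.0335). ADGRL3, the adhesion receptor latrophilin 3, had 445, 523, 163 and 269 counts (556 and 638 CPM, then 419 and 412; -0.52 ± 0.13, edgeR adjusted p = 0.0356). CDH12, a classical cadherin, had 376, 366, 120 and 217 counts (470.2 and 446 CPM, then 309 and 332; -0.51 ± 0.14, edgeR adjusted p = 0.0459). The irradiated libraries of these 3 genes were close to each other and below both untreated ones. CDH13, a cadherin anchored by lipid in place of a membrane-spanning tail, moved the other way with 147, 132, 86 and 197 counts (184 and 161 CPM, then 221 and 301; 0.63 ± 0.17, edgeR adjusted p = 0.0483), and its irradiated libraries were far apart. SDK1 and TENM2, with the most iCLIP counts of the group, did not pass (0.06 ± 0.11 and -0.23 ± 0.12, edgeR adjusted p = 0.875 and 0.414). Leaving out 1 library ended each of these calls at least for some library. The edgeR adjusted p reached 0.146 for NLGN1 (without irradiated 2; 0.0850 without untreated 2), 0.155 for PCDH9 (without untreated 1; 0.0799 without irradiated 1) and 0.460 for ADGRL3 (without untreated 2; 0.109 without untreated 1). It reached 0.364 for KIRREL3 (0.147 and 0.106 without untreated 1 and irradiated 2), 0.228 for CDH12 (0.422 and 0.0591 without untreated 1 and irradiated 1) and 0.375 for CDH13 (0.127 and 0.469 without untreated 1 and irradiated 2), each first value being that without untreated 2.

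Receptor-type tyrosine phosphatases and ion channels were the groups whose median was above 0 in every fit run, at 0.10 and 0.07, or 0.03 and 0.01 with library totals. Without untreated library 1 the channel median was 0.0012, which is hardly above 0, and the phosphatase median 0.07. Of 6 phosphatases 1 was higher and 5 did not pass. PTPRN2, a catalytically weak phosphatase of secretory vesicles, had 1012, 1273, 944 and 1248 counts, or 1265 and 1553 CPM untreated and 2428 and 1909 CPM irradiated. Both irradiated libraries were above both untreated ones, by 0.62 ± 0.13 on the log2 scale (SE; edgeR adjusted p = 0.0125). Leaving out untreated library 1 gave 0.47 with an edgeR adjusted p of 0.193. PTPRG, PTPRK and PTPRM ranged from -0.18 to 0.19 and did not pass.

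Of 22 channels and receptors 1 was higher and 21 did not pass. CACNA1C, the pore-forming subunit of an L-type calcium channel, had 362, 378, 246 and 434 counts (453 and 461 CPM, then 633 and 664; log2 fold change 0.51 ± 0.13, edgeR adjusted p = 0.0320). Replicates lay close together in each group. Without untreated library 1, untreated library 2 or irradiated library 2 its edgeR adjusted p was 0.400, 0.281 and 0.0504. It was 0.0740 with library totals, 0.0619 without the filter on low counts and 0.148 with the replicate block, and DESeq2 gave an adjusted p of 0.218. Of the 7 genes called higher, CDH13, TMEM117 and PHACTR1 also lost the call with library totals (edgeR adjusted p = 0.0950, 0.0559 and 0.0602). The glutamate receptor gene GRID1 (605, 562, 305 and 531 counts) had a log2 fold change of 0.15 ± 0.12 and did not pass.

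Among 34 signalling genes 3 were lower, 31 did not pass and the median was -0.04. PRKD1, protein kinase D1, had 183, 167, 55 and 84 counts (229 and 204 CPM, then 141 and 129; log2 fold change -0.69 ± 0.17, edgeR adjusted p = 0.0263). RGS7, which speeds GTP hydrolysis by G protein subunits, had 216, 234, 72 and 118 counts (270.1 and 285 CPM, then 185 and 181; -0.61 ± 0.15, edgeR adjusted p = 0.0311). INPP4B, a phosphatase of inositol lipids, had 257, 282, 73 and 162 counts (321 and 344 CPM, then 188 and 248; -0.59 ± 0.16, edgeR adjusted p = 0.0468). The groups did not overlap in any of the 3, and the irradiated INPP4B libraries were the farthest apart. Leaving out untreated library 1, untreated library 2 or 1 irradiated library ended each call, with edgeR adjusted p of 0.281, 0.0563 and 0.121 for PRKD1 and 0.148, 0.252 and 0.0901 for RGS7 (irradiated 2 left out), and of 0.140, 0.267 and 0.146 for INPP4B (irradiated 1 left out). AGAP1, DOCK1 and PRKCA, which regulate membrane traffic, the cytoskeleton and growth signals and had the most counts of the group, had log2 fold changes of 0.05, -0.04 and -0.46 and did not pass (edgeR adjusted p = 0.910, 0.938 and 0.0815).

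Scaffold and trafficking genes numbered 47, of which 1 was lower and 46 did not pass, with a median of -0.11. MAGI1, a scaffold of cell junctions, had 937, 781, 280 and 488 counts (1172 and 953 CPM, then 720.2 and 747; log2 fold change -0.53 ± 0.13, edgeR adjusted p = 0.0271). Its irradiated libraries were within a few percent of each other while the untreated ones were farther apart, and leaving out untreated library 1 gave -0.39 with an edgeR adjusted p of 0.521. PARD3, a polarity scaffold with 1219, 1266, 520 and 851 counts, had -0.22 ± 0.11, and GPHN, the scaffold of inhibitory synapses with 545, 542, 339 and 530 counts, had 0.32 ± 0.12; neither passed.

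Regulators of gene expression numbered 31, and edgeR with all libraries and TMM called 0 of them, as did DESeq2, although 11 had an unadjusted p below 0.05 and the group's median of -0.17 was the lowest of the role groups. AUTS2, a chromatin regulator and the gene with the second most counts among very long genes, had 1553, 1496, 602 and 998 counts (log2 fold change -0.29 ± 0.11, edgeR adjusted p = 0.204). RAD51B, a recombination protein of DNA repair, had 914, 898, 384 and 634 counts (-0.19 ± 0.12, edgeR adjusted p = 0.491). The transcription factors SOX5 (371, 347, 136 and 183 counts) and SOX6 (266, 265, 104 and 151) had -0.51 ± 0.15 and -0.41 ± 0.15. Their untreated libraries lay above their irradiated ones after scaling, but edgeR adjusted p was 0.0663 and 0.173. SOX5 passed as lower with library totals, without the filter and without irradiated library 1 (edgeR adjusted p = 0.0362, 0.0376 and 0.00171). In the whole group edgeR called 1 lower in each of the first 2 of these fits and 2 lower in the last, and 1 higher and 1 lower without irradiated library 2.

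Of 22 genes on the enzyme list 1 was higher (PHACTR1), and of 17 secreted and large surface proteins 1 was higher (TMEM117). Of 66 tested genes on none of the role lists 2 were higher (CALN1 and TAFA2). In these 3 groups 0 genes were called lower with all libraries and TMM, and DESeq2 also called 0 lower. Their medians were nevertheless -0.13, -0.13 and -0.10. Other edgeR fits did call some lower: 1 secreted gene and 1 on no list with library totals, 1 secreted gene without irradiated library 1, and 1 enzyme gene and 2 on no list without irradiated library 2. CALN1, a neuronal calcium-binding protein, rose from 1275 and 1332 CPM to 2176 and 1975 CPM (1020, 1092, 846 and 1291 counts). Its log2 fold change of 0.67 ± 0.11 (edgeR adjusted p = 0.00156) had the smallest adjusted p of the very long genes, and it alone among the 16 passed in all 10 alternative fits. RefSeq places it on chromosome 7 from 71779491 to 72504279, with 3 overlapping genes, none protein-coding. TAFA2, a secreted chemokine-like protein that was not on the secreted list, had 41, 43, 39 and 64 counts (51.3 and 52.5 CPM, then 100.3 and 97.9). Its log2 fold change was 0.93 ± 0.22 (edgeR adjusted p = 0.0240), with replicates almost equal in each group.

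PHACTR1, which binds actin and protein phosphatase 1, had 75, 86, 67 and 103 counts (93.8 and 105 CPM, then 172 and 158; log2 fold change 0.72 ± 0.18, edgeR adjusted p = 0.0335). TMEM117, a multi-pass membrane protein, had 143, 131, 99 and 174 counts (179 and 159.8 CPM, then 255 and 266; 0.63 ± 0.15, edgeR adjusted p = 0.0274). In both the irradiated libraries were close together and above the untreated ones. The calls of these genes did not hold without untreated library 1, untreated library 2 or 1 irradiated library: edgeR adjusted p was 0.324, 0.0953 and 0.0510 for PHACTR1 (irradiated 1), 0.141, 0.336 and 0.0768 for TMEM117 (irradiated 2) and 0.155, 0.129 and 0.0515 for TAFA2 (irradiated 2). WWOX, an oxidoreductase gene at a common fragile site, had 1029, 1046, 370 and 720 counts (-0.32 ± 0.12, edgeR adjusted p = 0.205), and passed as lower without irradiated library 2 (-0.43, edgeR adjusted p = 0.0433).

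**Figure D3:**
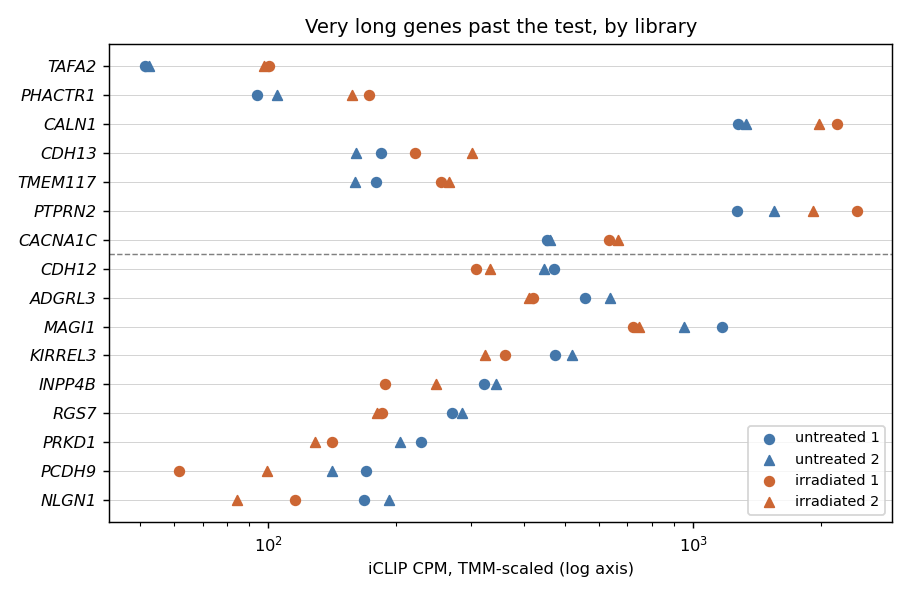
iCLIP CPM (TMM-scaled, log axis) of the 16 very long genes that passed the test, with 1 symbol per library. Above the dashed line the 7 genes have both irradiated libraries to the right of both untreated ones, and below it the 9 genes have them to the left; CALN1 and PTPRN2 are the highest of the genes that rose.

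A list of large genes at or near common fragile sites, taken from background knowledge, held 30 of the very long genes. CDH13 was higher, none was lower and 29 did not pass; the median was -0.09, against -0.11 in the other 270 tested. Its share of iCLIP gene counts was 1.36% ± 0.0137 untreated and 1.21% ± 0.00305 irradiated (SD, n = 2 each), a ratio of 0.891. FHIT (175, 186, 83 and 134 counts), the classic fragile-site gene, had a log2 fold change of -0.09 ± 0.15. The 14 noncoding genes had 0 calls by edgeR and DESeq2, 1 unadjusted p below 0.05 and a median of -0.05, and DLEU1 (170, 181, 57 and 123 counts), a long noncoding RNA gene, had the most counts of them.

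All 301 genes were listed in all 4 iCLIP tables, as were 99.1% of the listed genes of 200 to 500 kb, 85.0% of those of 50 to 200 kb and 37.8% of those below 50 kb. Per length, the median of the 301 genes was 0.104 untreated counts per kb, and that of 9328 genes with at least 20 summed untreated counts was 0.702. The minimum of 20 counts keeps a short gene only where its level per kb is high, and it was not applied to the 301. The 2 medians therefore do not show that very long genes are low per length. On the scale of untreated CPM per kb the very long genes ran from 0.0125 to 2.55 with a median of 0.129. SDK1 (1977, 2024, 1019 and 1649 counts) was highest at 2.55 CPM per kb, then AGAP1 at 2.47, PARD3 at 2.18, CALN1 at 1.95 and DOCK1 at 1.90. The 12 genes with the most counts held 24.5% of the untreated counts on very long genes. Levels per kb in iCLIP and RNA-seq were ordered alike (Spearman rho 0.82 over 301 genes, which share length and libraries).

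Very long genes stood out by how much more of the iCLIP counts they held than of the RNA-seq counts, in untreated cells. The ratio of a gene's share in iCLIP to its share in RNA-seq had a median of 12.005 over the 184 very long genes with at least 50 RNA-seq counts, and 183 of them were above 1. The median was 0.439 below 50 kb, 1.71 from 50 to 200 kb, 4.87 from 200 to 500 kb, and 18.1 in the 34 very long genes of at least 1 Mb that could be measured. It was 13.9 in the genes left out by name. Genes with an iCLIP row held 80.6% of the untreated RNA-seq gene counts, but RNA-seq shares were taken of all of those counts. Every ratio is raised by this, by the same factor in all length bands, so a value of 1 is not an exact point of equality. The highest ratios were those of MAGI2 (104), a synaptic scaffold, IMMP2L (73.1), a mitochondrial peptidase, NALF1 (61.7), a regulator of a sodium leak channel, GPC5 (61.1), a cell-surface proteoglycan, RGS7 (58.4) and PTPRN2 (53.6). MAGI2, for example, had 531 and 583 untreated iCLIP counts and 88 RNA-seq counts.

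The lowest were DELEC1 (0.0832), SYN3 (1.25), LRRC7 (1.26), FGF14 (1.26), ADGRL2 (1.28) and SUMF1 (1.54). DELEC1, with 15 and 17 iCLIP counts against 3260 RNA-seq counts, was the only gene of the 184 below 1, and RefSeq gives it 260827 bases. How each assay's counting treated introns is not given in the sources, and the part of that in these ratios was not tested.

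**Figure D4:**
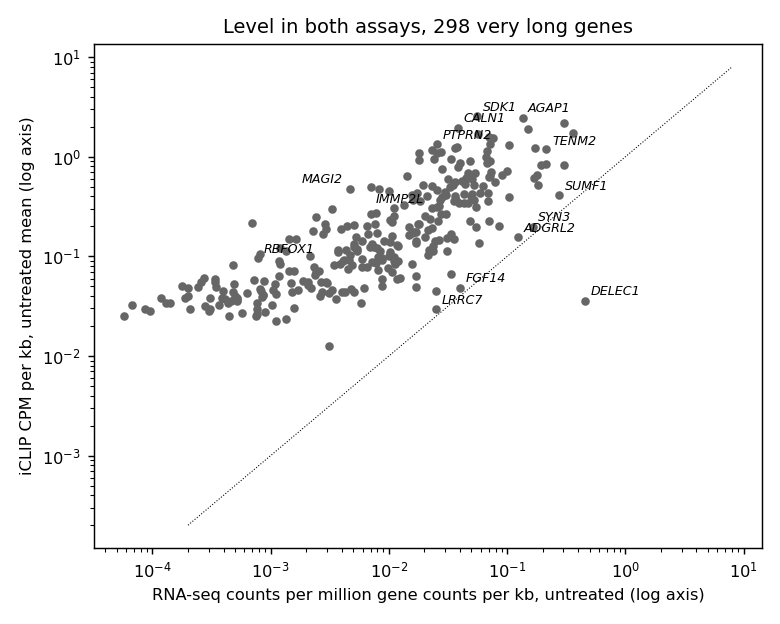
Untreated level per kb in RNA-seq (1 library, counts scaled to equal gene totals, log axis) and in iCLIP (mean of 2 libraries, TMM-scaled CPM, log axis) for the 298 very long genes with a count in untreated RNA-seq; the dotted line marks equal values. Nearly all genes lie above the line, SDK1 and AGAP1 are highest in iCLIP, and DELEC1 lies far below the line. The RNA-seq gene total includes genes without an iCLIP row, which raises every gene relative to the line.

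RNA-seq had 1 library per condition, so it gives ratios with counting intervals and no replicate check. Among 155 very long genes that reached 100 counts in an RNA-seq library the median log2 ratio was -0.03, and 86 (55.5%) were below 0, against 51.1% of the genes of all lengths measured in both assays. A size rule asked for a ratio of at least 2-fold with its 95% interval beyond 1.5-fold. NRG1, a growth factor of the ERBB receptors, was the 1 gene past it as higher (0.863% of all genes with that many counts were), and 0 were past it as lower (0.624% of all). NRG1 went from 169 to 357 counts, a ratio of 2.09 (95% interval 1.73 to 2.52), while its iCLIP counts of 220, 220, 107 and 175 gave a log2 fold change of -0.00 ± 0.14. CSMD3 went from 49 to 100 counts (2.02, 1.42 to 2.90) and the transcription factor gene CREB5 from 679 to 1142 (1.66, 1.51 to 1.83), and their iCLIP log2 fold changes were 0.20 and 0.21. The lowest ratios were those of SOX5 (231 to 134 counts; 0.574, 0.460 to 0.713), SOX6 (437 to 265; 0.600, 0.513 to 0.700) and CADPS2 (130 to 85; 0.647, 0.486 to 0.856).

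The genes called in iCLIP did not all have the same direction in RNA-seq. Of the 7 that rose in iCLIP, 2 had an RNA-seq interval wholly above 1: CALN1 (336 and 472 counts; 1.39, 1.21 to 1.60) and CDH13 (402 and 499; 1.23, 1.07 to 1.40). PTPRN2 had 350 and 308 counts (0.870, 0.744 to 1.02) and CACNA1C 133 and 135 (1.00, 0.784 to 1.28). Of the 9 that fell, 4 had an interval wholly below 1: INPP4B (386 and 281; 0.720, 0.615 to 0.842), ADGRL3 (617 and 457; 0.732, 0.648 to 0.828), PRKD1 (282 and 238; 0.835, 0.699 to 0.995) and MAGI1 (681 and 609; 0.884, 0.791 to 0.988). NLGN1 had 76 and 94 counts (1.22, 0.894 to 1.68) and PCDH9 81 and 98 (1.20, 0.882 to 1.63), so their RNA-seq ratios were above 1 with intervals that include it. Among all 301 genes 31 had an interval wholly above 1 and 32 wholly below. These intervals cover counting error only, and the share of genes of all lengths with such an interval is not given here. Over the 155 genes the iCLIP log2 fold change and the RNA-seq log2 ratio had a Spearman rho of 0.41, as a description of these libraries.

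**Figure D5:**
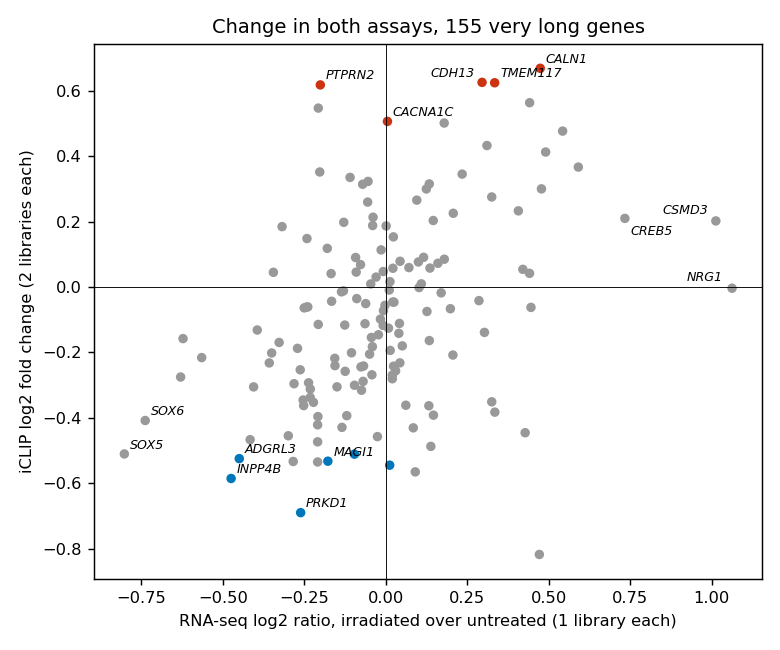
RNA-seq log2 ratio (1 library per condition) against iCLIP log2 fold change (2 libraries per condition) for 155 very long genes, with genes called higher in iCLIP in red and lower in blue. CALN1 is high in both, PTPRN2 is high in iCLIP with an RNA-seq ratio of 0.870, and NRG1 is the farthest right at an iCLIP log2 fold change of -0.00.

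Transcription of long genes is known to lean on topoisomerases, elongation factors and the splicing particle U1, which guards against early termination. Of a list of 42 such genes, 30 had a row in iCLIP and 28 were tested; edgeR called 0, DESeq2 called 0, and 4 had an unadjusted p below 0.05, with a median log2 fold change of -0.04. SNRNP70, a U1 protein, had the most counts (309, 355, 213 and 316; 0.32 ± 0.14, edgeR adjusted p = 0.265), then the termination factor PCF11 (239, 211, 94 and 196; -0.02 ± 0.16, edgeR adjusted p = 0.977). Without irradiated library 1, CCNT1, the cyclin of the elongation kinase, passed as higher (0.73, edgeR adjusted p = 0.0481, against 0.355 with all libraries).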

How the data were processed

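TIRR iCLIP was read in 2 untreated and 2 irradiated libraries and RNA-seq in 1 untreated and 1 irradiated library of U2OS cells, grouped by the sample titles. The authors deposited, per the file headers, a whole-number cDNA count per gene, the percent of all cDNA that it makes up, and the gene's length. The hg38 build and, for RNA-seq, kallisto 0.44.0 are per the submitters' processing notes; aligner, treatment of duplicate reads, gene annotation version and strandedness of the counting remain not given in the sources used here. The intergenic entry (30.6% to 31.3% of iCLIP counts, 44.4% of RNA-seq counts) was left out of library sizes and tests.

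Genes were selected by length and name, and joined between assays by Ensembl ID; 18 further genes of at least 500 kb in RNA-seq had no iCLIP row and were not analysed here. The genes and lists were chosen with earlier results of these data known, so no list is independent evidence. edgeR 4.0.16 (R 4.3.3) fitted all genes that passed filterByExpr, with TMM scaling, the quasi-likelihood test without a replicate term, two-sided, and Benjamini-Hochberg adjustment; CPM are relative to gene counts, TMM-scaled, and SE is the log2 fold change divided by the root of F. The fit was run on simulated counts with the same dispersion for every gene. That spread need not match these libraries, so this is a check of the code only. RNA-seq ratios were TMM-scaled with exact conditional 95% intervals for counting error. The iCLIP to RNA-seq share ratio used a prior count of 0.5. Within-group libraries differed by more than sampling noise (chi-square over degrees of freedom 1.42 and 1.87). Alternatives were DESeq2 1.42.0, other scalings and filters, the replicate number as a term, each library left out, other denominators, a minimum length of 1 Mb, other count minimums and a prior count of 2. Genes named are those called, the 12 with most counts, the extremes in RNA-seq and in the share ratio, up to 4 with most counts per role list, the 3 longest and those nearest the length threshold. FHIT, DLEU1, PCDH11Y, CCNT1 and the markers with values were named after these were seen.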

Additional observations from a re-analysis of the deposited data

How the results depend on the processing

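With 2 libraries a group and a median of 170 summed untreated counts per very long gene, single calls were fragile, while the lower share of very long genes was present in each library. Calls among very long genes fell from 16 to 2 with DESeq2 and to 2 with the replicate block, ranged from 2 to 19 when 1 library was left out (the lone library of a group then being assumed to vary like the other group) and were 3 at a minimum length of 1 Mb; calls among all genes were 121, 190 and 186 to 421. The sample titles give only a replicate number, so whether same-numbered libraries were handled together is not known. Their deviations from the group means had a correlation of -0.0935 over 9230 genes. With 2 libraries a group this is a single value and cannot settle the pairing. Calls in the list of long-gene transcription factors ranged from 0 to 1 when 1 library was left out. The median log2 fold change of very long genes stayed below 0 in all alternatives (-0.13 to -0.06 with 1 library left out). Their share was 5.11% untreated and 4.67% irradiated with intergenic counts in the denominator, 7.74% and 7.18% without NEAT1, MALAT1 and mitochondrial genes in it, and 2.03% and 1.81% at 1 Mb. The median share ratio was 14.8 at a minimum of 10 RNA-seq counts and 11.7 to 11.8 with 1 untreated library left out. Log2 fold changes that changed sign were all of genes that did not pass. With library totals these were SDK1 (-0.010), AGAP1 (-0.023), NALF1 (-0.0096), ADK (-0.058), SYN3 (-0.057) and PTPRD (-0.060). Without the filter they were ADK (-0.026), SYN3 (-0.020) and PTPRD (-0.025), with the stricter filter of 20 counts CDK14 (0.0020) and NRG1 (0.012), and with the replicate block SYN3 (-0.011). With 1 library left out the ranges were -0.14 to 0.050 for TRAPPC9, -0.11 to 0.048 for DOCK1, -0.11 to 0.069 for CDK14, -0.16 to 0.054 for KCNQ5, -0.032 to 0.14 for NALF1, -0.11 to 0.14 for ADK, -0.028 to 0.019 for NRG1, -0.29 to 0.010 for GPC5, -0.18 to 0.21 for SYN3, -0.052 to 0.088 for PTPRD, -0.027 to 0.45 for CSMD3, -0.17 to 0.95 for KCNAB1 and -1.88 to 0.059 for LRRC7. The cause of these changes was not tested. Of the other log2 fold changes recomputed for named genes, 511 kept direction and call, 76 lost the call and 9 gained it, and all 51 RNA-seq ratios recomputed with library totals stayed within their counting intervals.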
